A study of Mus musculus with 12 samples.

Results

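Open chromatin was examined at the 4 genes of the reelin pathway core, namely Reln, its receptor genes Vldlr and Lrp8, and Dab1. A library's peak was given to one of them if the midpoint of the peak fell within the mm10 span of the gene or no more than 100 kb away, and no other protein-coding gene was nearer. By this rule 126 of the 218906 peaks in 12 libraries belonged to the 4 genes. Overlapping peaks of different libraries were joined, which gave 30 regions at these genes of 44242 in all. Reln had 10 regions, Vldlr 2, Lrp8 5 and Dab1 13.

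Reelin, the product of Reln, is a large glycoprotein secreted by certain neurons. It binds the lipoprotein receptors VLDLR and ApoER2, the latter encoded by Lrp8, and the bound receptors bring about tyrosine phosphorylation of the adaptor protein DAB1 by Src-family kinases, after which DAB1 engages effectors of the cytoskeleton and is degraded. In the developing cerebellum reelin comes from the granule cell lineage and the cerebellar nuclei and directs Purkinje cells into their layer, and mice without reelin, the reeler mutants, are ataxic.

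The libraries were made by ATAC-seq, an assay in which a transposase tags accessible DNA, from cells of endpoint SHH medulloblastomas, cerebellar tumours with active hedgehog signalling. Every mouse was Ptch1+/-, thus short of 1 copy of the hedgehog receptor gene, and none was treated. One sort used eGFP to separate SOX2- bulk tumour cells (4 libraries) from SOX2+ stem-like cells (4 libraries), and another used RFP to divide SOX2+ cells into non-cycling SOX2+/MKI67- cells (2 libraries) and cycling SOX2+/MKI67+ cells (2 libraries). The labels do not name the reporter alleles or give ages, and they do not say whether replicates are different mice, so the p-values describe the spread among these libraries, part of which may be technical.

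The lists of peaks held 7009 to 26206 peaks for SOX2- cells, 9377 to 25272 for SOX2+ cells, 17615 to 19229 for SOX2+/MKI67- cells and 18738 to 24694 for SOX2+/MKI67+ cells. Read depth is unknown, and the length of a list stood in for it. The shortest lists were those of SOX2- replicate 1 and SOX2+ replicate 2. At Sox2, the gene the sort was based on, the 4 SOX2- libraries listed 0, 1, 1 and 1 peaks and the 4 SOX2+ libraries listed 5, 2, 6 and 4, with 3 and 6 in SOX2+/MKI67- and 3 and 5 in SOX2+/MKI67+ cells. The SOX2+ counts were all above the SOX2- counts, and the limma log2 difference of 1.49 just missed the threshold of 0.05 (Benjamini-Hochberg adjusted p = 0.0576). A peak missing from a list can lie just under that list's threshold, and in bulk libraries fewer cells with an open site and a less open site in each cell cannot be told apart.

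Reln, the ligand gene, had more peaks in bulk tumour cells than in SOX2+ cells. The 4 SOX2- libraries listed 3, 9, 4 and 8 peaks in replicate order, and the 4 SOX2+ libraries listed 1, 0, 3 and 1. SOX2+/MKI67- cells had 1 and 2 peaks and SOX2+/MKI67+ cells 2 and 3. The raw counts of the SOX2 groups touched at 3 peaks, in SOX2- replicate 1 with its list of 7009 peaks and in SOX2+ replicate 3 with its list of 19636. Set against list length, Reln took 4.28, 3.43, 3.16 and 3.69 of every 10000 peaks in the SOX2- libraries and 0.596, 0, 1.53 and 0.396 in the SOX2+ libraries. On that scale the SOX2- mean was 3.64 ± 0.478 (SD, n = 4) against 0.630 ± 0.648 (SD, n = 4), and every SOX2+ value was below every SOX2- value. How many of all genes separate in this way was not counted, and the highest value, 4.28, came from the list of 7009 peaks. The MKI67 groups, at 0.520 and 1.14 for SOX2+/MKI67- and 1.07 and 1.22 for SOX2+/MKI67+, also stayed below every SOX2- library.

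**Figure D1:**
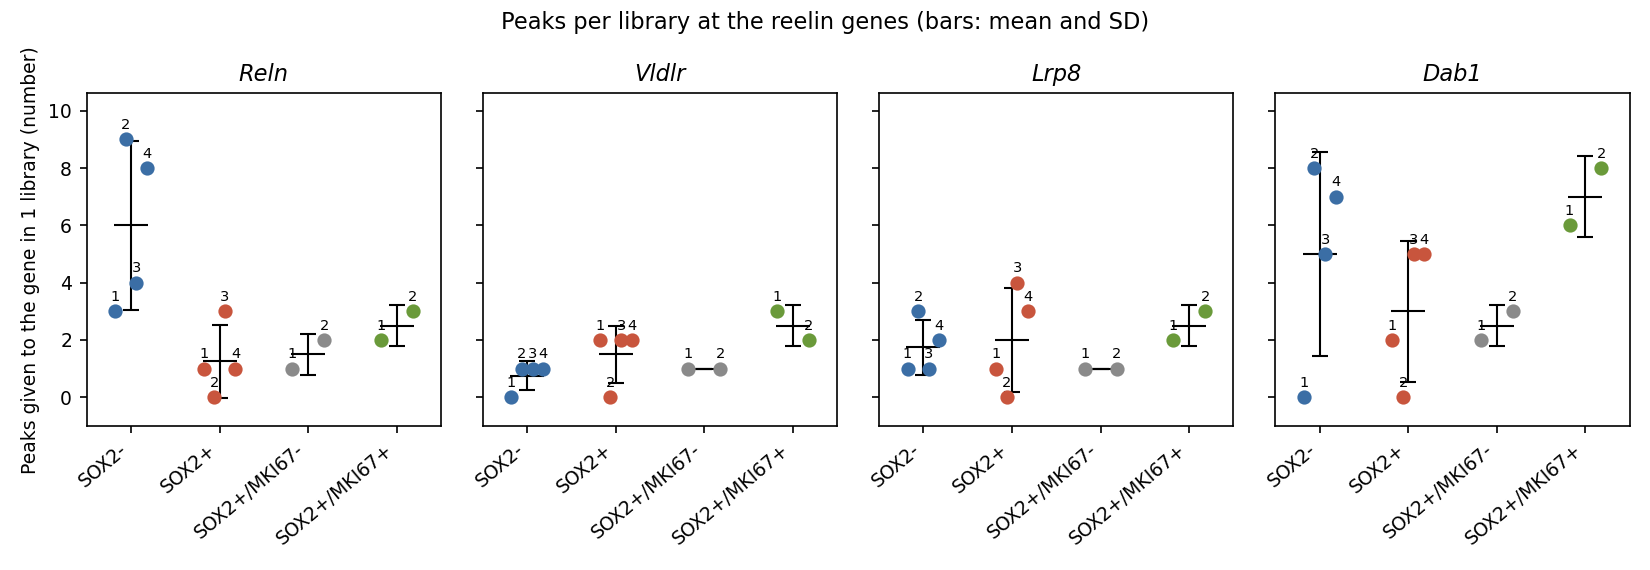
Number of peaks given to Reln, Vldlr, Lrp8 and Dab1 in each of the 12 libraries, by sorted group. Points are libraries with their replicate numbers, and bars are the mean and SD of a group. Reln counts run from 3 to 9 in SOX2- and from 0 to 3 in SOX2+ libraries, and those of Vldlr, Lrp8 and Dab1 overlap between the SOX2 groups.

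The difference was tested with limma on log2(peaks per gene + 1) over 14246 genes, with the log10 of list length as a covariate and an adjusted p under 0.05 as the threshold. Reln was lower in SOX2+ than in SOX2- cells by a log2 difference of -1.83 ± 0.296 (SE; 95% interval -2.52 to -1.14; Benjamini-Hochberg adjusted p = 0.0417). Of the 4 genes it was the only one past the threshold, and 0.891% of all genes tested passed. The call was narrow. Leaving out SOX2+ replicate 3 gave -2.10 (adjusted p = 0.00476), and leaving out any of the other 11 libraries gave differences of -1.89 to -1.66 that missed the threshold (adjusted p from 0.0621 to 0.127). It was also missed with a replicate block (adjusted p = 0.236), without the covariate (0.287), with the 8 libraries of that sort only (0.119), with a pseudocount of 0.5 (0.0607), with peaks of a −log10 q of at least 5 (0.0568), with every gene within 100 kb counted (0.0785) and, chosen after seeing the data, without the shortest list of each SOX2 group (0.144). When genes with the same count in all 12 libraries were dropped, an alternative chosen after seeing the data, the adjusted p was 0.0100, and between 0.0157 and 0.0486 with each library left out. Taking only the 7009 top-scoring peaks of each list left 3, 1, 3 and 2 Reln peaks in the SOX2- libraries and 0 in all 8 other libraries, with a log2 difference of -1.65 (adjusted p = 0.00183). The list of SOX2- replicate 1 held 7009 peaks and so was not shortened. By score its 3 Reln peaks stood only at percentiles 0.2, 3.7 and 7.2 of that list.

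SOX2+/MKI67- and SOX2+/MKI67+ cells were also set against SOX2- cells, although these groups come from different sorts, so that sort and group cannot be told apart, and all 3 comparisons share the SOX2- libraries. For Reln the limma log2 difference was -1.65 ± 0.367 (SE) for SOX2+/MKI67- (adjusted p = 0.114) and -1.33 ± 0.379 (SE) for SOX2+/MKI67+ cells (adjusted p = 0.303). For the other genes these differences were, in the same order, -0.90 and -0.08 at Dab1 (adjusted p = 0.370 and 1), -0.65 and -0.06 at Lrp8 (0.548 and 1) and 0.05 and 0.68 at Vldlr (1 and 0.654). With limma none of the 4 genes passed in either comparison, where 1.0% and 0.555% of all genes did. At an unadjusted p under 0.05 there was 1 of 4 in each, Reln both times, beside 14.3% and 9.53% of all genes.

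Where the Reln peaks lay was examined next. The gene runs on the minus strand over chr5:21884454-22344705, a span of 460.3 kb, and its start site is at 22344705. The start was covered by a region at chr5:22344236-22345243, which was listed in 4 of 4 SOX2- libraries, in SOX2+ replicate 3, in SOX2+/MKI67- replicate 2 and in SOX2+/MKI67+ replicate 2. The other 3 SOX2+ libraries had no peak at the start of Reln. Each peak has a score from the authors' peak caller, used here only to rank peaks within a list (100 is the strongest peak of that list). The start-site peak ranked at percentile 7.2, 73.1, 60.4 and 58.7 of the 4 SOX2- lists, at 17.1 in SOX2+ replicate 3, at 18.9 in SOX2+/MKI67- replicate 2 and at 57.4 in SOX2+/MKI67+ replicate 2.

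The sequence before the Reln start is shown with those before both annotated starts of Dab1, because the Reln start and the inner Dab1 start carried listed peaks and the first Dab1 start carried none in any library. Each run is the 250 bases upstream of the start, 5′ to 3′ on the strand of the gene, from RefSeq for GRCm38.p6, the assembly of mm10. Capitals mark CpG dinucleotides. The Reln run is chr5:22344706-22344955 on the minus strand, the inner Dab1 run is chr4:104367288-104367537 and the first Dab1 run is chr4:103619250-103619499, both on the plus strand.
Reln: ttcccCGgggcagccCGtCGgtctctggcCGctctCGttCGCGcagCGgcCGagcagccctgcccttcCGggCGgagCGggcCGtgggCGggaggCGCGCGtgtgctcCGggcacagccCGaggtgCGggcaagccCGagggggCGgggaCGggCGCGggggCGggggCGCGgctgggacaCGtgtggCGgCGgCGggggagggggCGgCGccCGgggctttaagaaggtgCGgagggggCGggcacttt
Dab1 inner start: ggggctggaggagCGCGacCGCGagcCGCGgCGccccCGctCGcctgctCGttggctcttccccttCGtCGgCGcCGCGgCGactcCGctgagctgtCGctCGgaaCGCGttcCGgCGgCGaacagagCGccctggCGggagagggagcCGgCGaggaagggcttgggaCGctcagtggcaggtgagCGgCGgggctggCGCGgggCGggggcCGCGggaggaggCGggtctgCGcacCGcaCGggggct
Dab1 first start: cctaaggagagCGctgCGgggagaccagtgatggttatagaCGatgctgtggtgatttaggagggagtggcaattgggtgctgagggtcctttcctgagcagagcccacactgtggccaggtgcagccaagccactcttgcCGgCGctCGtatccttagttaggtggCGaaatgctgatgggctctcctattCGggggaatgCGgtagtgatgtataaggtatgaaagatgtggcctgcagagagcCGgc
The Reln run held 37 CpG and was 80.0% G or C, and the inner Dab1 run held 40 CpG and was 78.0% G or C. The first Dab1 run held 10 CpG and was 56.4% G or C. In windows from 250 bases before to 50 after a start, Reln had 47 CpG, the inner Dab1 start 46 and the first Dab1 start 12, beside a median of 7 over 32851 such windows of 27025 genes.

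Motif letters were searched on both strands of the 8 annotated start windows of the 4 genes, all of which matched RefSeq by symbol. Neither the Reln window nor those of Dab1 held the E-box CAGCTG, the GLI letters GACCACCCA, the SOX letters ACAATG or ACAAAG, the POU letters ATGCAAAT, the ZIC letters CAGCAGG, the T-box letters TCACACCT or the palindromic NFI motif. Over all windows these letters occurred in 16.3%, 0.253%, 12.6%, 18.7%, 1.74%, 10.5%, 1.28% and 0.0365%, in that order. The E-box was found in 1 Vldlr window, ACAATG in 1 Vldlr and 1 Lrp8 window, and ACAAAG in another Lrp8 window. No motif overlapped another in a window, and a missing motif says only that these letters are not in that window.

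Inside the Reln gene, 9 further regions were listed. Exons were not annotated in the gene table, so these are placed by their distance from the start site. A region 251.3 kb into the gene, chr5:22093134-22093743, was listed in all 4 SOX2- libraries and in none of the 8 others. Its peak ranked at percentile 0.2, 68.3, 47.0 and 74.6 of the SOX2- lists. A region 395.3 kb into the gene, chr5:21949032-21949694, was again listed in all 4 SOX2- and no SOX2+ library, at percentiles 3.7, 63.0, 75.4 and 58.7. It was also in both SOX2+/MKI67+ lists, at percentiles 10.4 and 2.6, and in neither SOX2+/MKI67- list. The region 63.9 kb in, chr5:22280577-22280946, was listed in SOX2- replicates 2, 3 and 4 alone, at percentiles 0.0, 39.3 and 1.6, so that 2 of its 3 peaks were among the weakest of their lists.

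Not every Reln region was a region of SOX2- cells. The one 96.7 kb into the gene, chr5:22247710-22248227, singled out after its values were seen, was listed by SOX2- replicates 2 and 4, by 3 of the 4 SOX2+ libraries and by every MKI67-sorted library, at percentiles from 22.0 to 62.0. It supplied the single Reln peak of SOX2+ replicates 1 and 4 and of SOX2+/MKI67- replicate 1. The remaining 5 regions were in 1 or 2 SOX2- libraries each and in no library of another group. In all, 7 of the 10 Reln regions were listed in SOX2- libraries and in none of the other 3 groups.

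**Figure D2:**
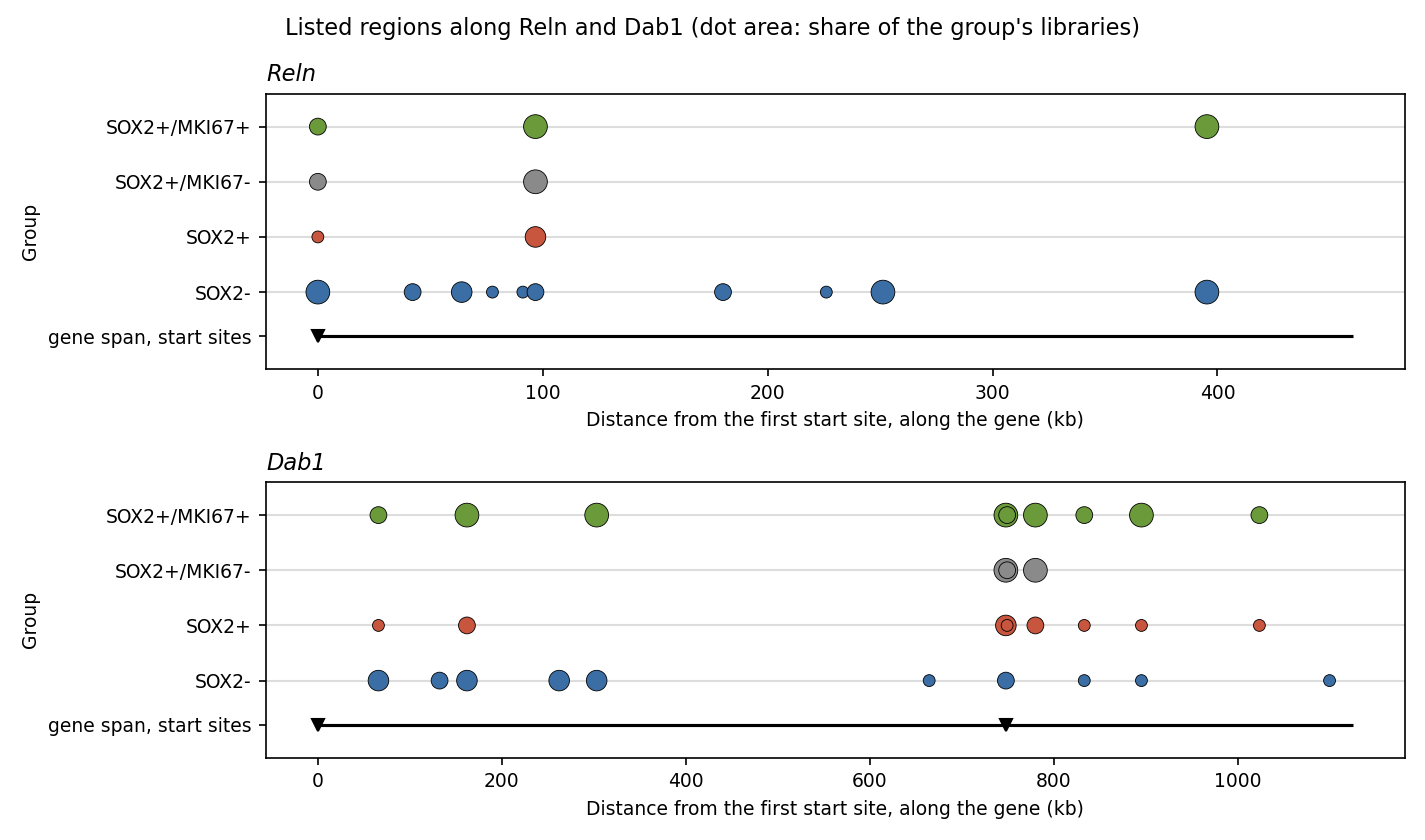
Regions with listed peaks along Reln and Dab1, by distance in kb from the first annotated start site (triangles mark start sites, the line the gene span). The area of a dot is the share of the group's libraries that listed the region. Reln dots are spread over the gene in SOX2- cells and lie at 2 or 3 places in the other groups; SOX2+/MKI67- cells have no Dab1 dot before the inner start.

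Dab1 encodes the cytoplasmic adaptor that carries the signal in the receiving cell. Its span of 1125.3 kb on chromosome 4, chr4:103619500-104744844 on the plus strand, has annotated starts at 103619500 and 104367538. The SOX2- libraries listed 0, 8, 5 and 7 peaks, and the SOX2+ libraries 2, 0, 5 and 5. SOX2+/MKI67- cells had 2 and 3 peaks and SOX2+/MKI67+ cells 6 and 8. The SOX2 groups overlapped, with a library at 0 in each, both from the shortest list of its group. In the MKI67 sort, with 2 libraries a group, the level of SOX2+/MKI67+ cells was 3.20 and 3.24 per 10000 peaks against 1.04 and 1.70 in SOX2+/MKI67- cells. The limma log2 difference was -0.77 ± 0.320 (SE) for SOX2+ minus SOX2- (unadjusted p = 0.0452, adjusted p = 0.354), with a 95% interval from -1.51 to -0.02. For SOX2+/MKI67+ minus SOX2+/MKI67- it was 0.82 ± 0.453 (SE; 95% interval -0.24 to 1.87; adjusted p = 1). Neither passed the threshold.

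The position of the peaks along Dab1 differed between libraries. Of the 13 regions, 6 lay before the inner start and 7 from it on, a division made after the values were seen. The SOX2- libraries listed 0, 5, 5 and 5 of the 6 earlier regions, and the SOX2+ libraries listed 0, 0, 2 and 1 of them. Both SOX2+/MKI67- libraries listed 0 of the 6, and the SOX2+/MKI67+ libraries 3 and 2. Of the 7 later regions the SOX2- libraries listed 0, 3, 0 and 2, the SOX2+ libraries 2, 0, 3 and 4, the SOX2+/MKI67- libraries 2 and 3, and the SOX2+/MKI67+ libraries 3 and 6. SOX2- replicates 2 and 4, SOX2+ replicates 3 and 4 and both SOX2+/MKI67+ libraries had peaks in both stretches, and every Dab1 peak of SOX2+/MKI67- cells came from the inner start or after it.

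Among the earlier Dab1 regions, 2 were listed in SOX2- replicates 2, 3 and 4 and in no SOX2+ library. The one at chr4:103881592-103882085, 262.3 kb from the first start, ranked at percentiles 75.0, 29.8 and 79.8 and was absent from the MKI67-sorted lists as well. The one at chr4:103922247-103922976, 303.1 kb from the first start, held the highest-ranking peak of the 30 regions, with percentiles of 94.6, 57.2 and 74.9. It was also in both SOX2+/MKI67+ lists, at 35.2 and 28.2, and in neither SOX2+/MKI67- list. The same division within the MKI67 sort was seen 162.1 kb from the first start, chr4:103781282-103781837, a region listed in SOX2- replicates 2, 3 and 4 and in SOX2+ replicates 3 and 4. It was seen once more after the inner start, at chr4:104514625-104515010, listed in SOX2- replicate 2 and SOX2+ replicate 3.

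The inner start itself lay in chr4:104367061-104367813, listed in SOX2- replicates 2 and 4, in 3 of 4 SOX2+ libraries and in all 4 MKI67-sorted libraries, at percentiles from 14.5 to 58.5. A region 32.0 kb after it, chr4:104399262-104399814, was in no SOX2- library, in SOX2+ replicates 1 and 4 at percentiles 48.0 and 73.6, and in all 4 MKI67-sorted libraries at 43.5, 78.4, 67.3 and 69.1. Both were singled out after their values were seen. No region touched the first start in any library, and the nearest one was 65.9 kb after it.

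Vldlr, one of the receptor genes, is on chromosome 19 at chr19:27216480-27254231, on the plus strand. Its peak counts were 0, 1, 1 and 1 in SOX2- libraries, 2, 0, 2 and 2 in SOX2+ libraries, 1 and 1 in SOX2+/MKI67- and 3 and 2 in SOX2+/MKI67+ libraries. By count the SOX2 groups overlapped through SOX2+ replicate 2, which listed no peak at any of the 4 genes. By region they overlapped further, since SOX2+ replicates 1 and 3 listed 1 Vldlr region each, as did SOX2- replicates 2, 3 and 4. Most Vldlr peaks lay in chr19:27216762-27218019, which covers the start at 27217020 and was in 10 of 12 libraries, the most of the 30 regions. It was absent from SOX2- replicate 1 and SOX2+ replicate 2, the libraries with the shortest lists of their groups. A second region 10.9 kb into the gene, chr19:27227198-27227531, was in SOX2+ replicate 4 and both SOX2+/MKI67+ libraries. The 2 peaks of SOX2+ replicate 1 and the 2 of replicate 3 thus both lay in the start region, with no further region behind the higher count. The limma log2 difference was 0.33 ± 0.273 (SE; 95% interval -0.31 to 0.96) for SOX2+ minus SOX2- (adjusted p = 0.682) and 0.64 ± 0.386 (SE; 95% interval -0.26 to 1.54) within the MKI67 sort (adjusted p = 1). Over the alternatives the SOX2+ minus SOX2- estimate ranged from 0.0365 to 0.655.

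Lrp8, the gene of the other receptor, lies at chr4:107802200-107876840 on the plus strand. It had 1, 3, 1 and 2 peaks in SOX2- libraries, 1, 0, 4 and 3 in SOX2+ libraries, 1 and 1 in SOX2+/MKI67- and 2 and 3 in SOX2+/MKI67+ libraries, and the SOX2 groups overlapped throughout. Its limma log2 difference was -0.20 ± 0.324 (SE; 95% interval -0.96 to 0.55) for SOX2+ minus SOX2- (adjusted p = 0.911) and 0.60 ± 0.458 (SE; 95% interval -0.47 to 1.66) within the MKI67 sort (adjusted p = 1).

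The Lrp8 regions that were listed were not the same ones in every group. A region across the start of the gene span at 107802200, chr4:107801895-107802489, was listed in no SOX2- library. It was in SOX2+ replicates 1, 3 and 4 at percentiles 25.9, 6.2 and 50.2, and in all 4 MKI67-sorted libraries at 26.9, 21.9, 39.3 and 40.2. Its midpoint was 0.69 kb before 107802885, the first start among the start windows searched above, which the region did not reach. The other region within 1 kb of that start, chr4:107803632-107804015, singled out afterwards, was in SOX2+ replicates 3 and 4 and SOX2+/MKI67+ replicate 2 and again in no SOX2- library. The SOX2- peaks lay further inside the gene. The region 54.5 kb in, chr4:107857005-107857706, was in SOX2- replicates 2, 3 and 4 at percentiles 70.1, 50.9 and 64.1, in SOX2+ replicates 3 and 4 at 12.8 and 41.3, and in both SOX2+/MKI67+ libraries at 26.2 and 44.2, with no SOX2+/MKI67- library. Of 2 others, 1 was in SOX2- replicate 2 alone and 1 in 3 SOX2- libraries and SOX2+ replicate 3.

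**Figure D3:**
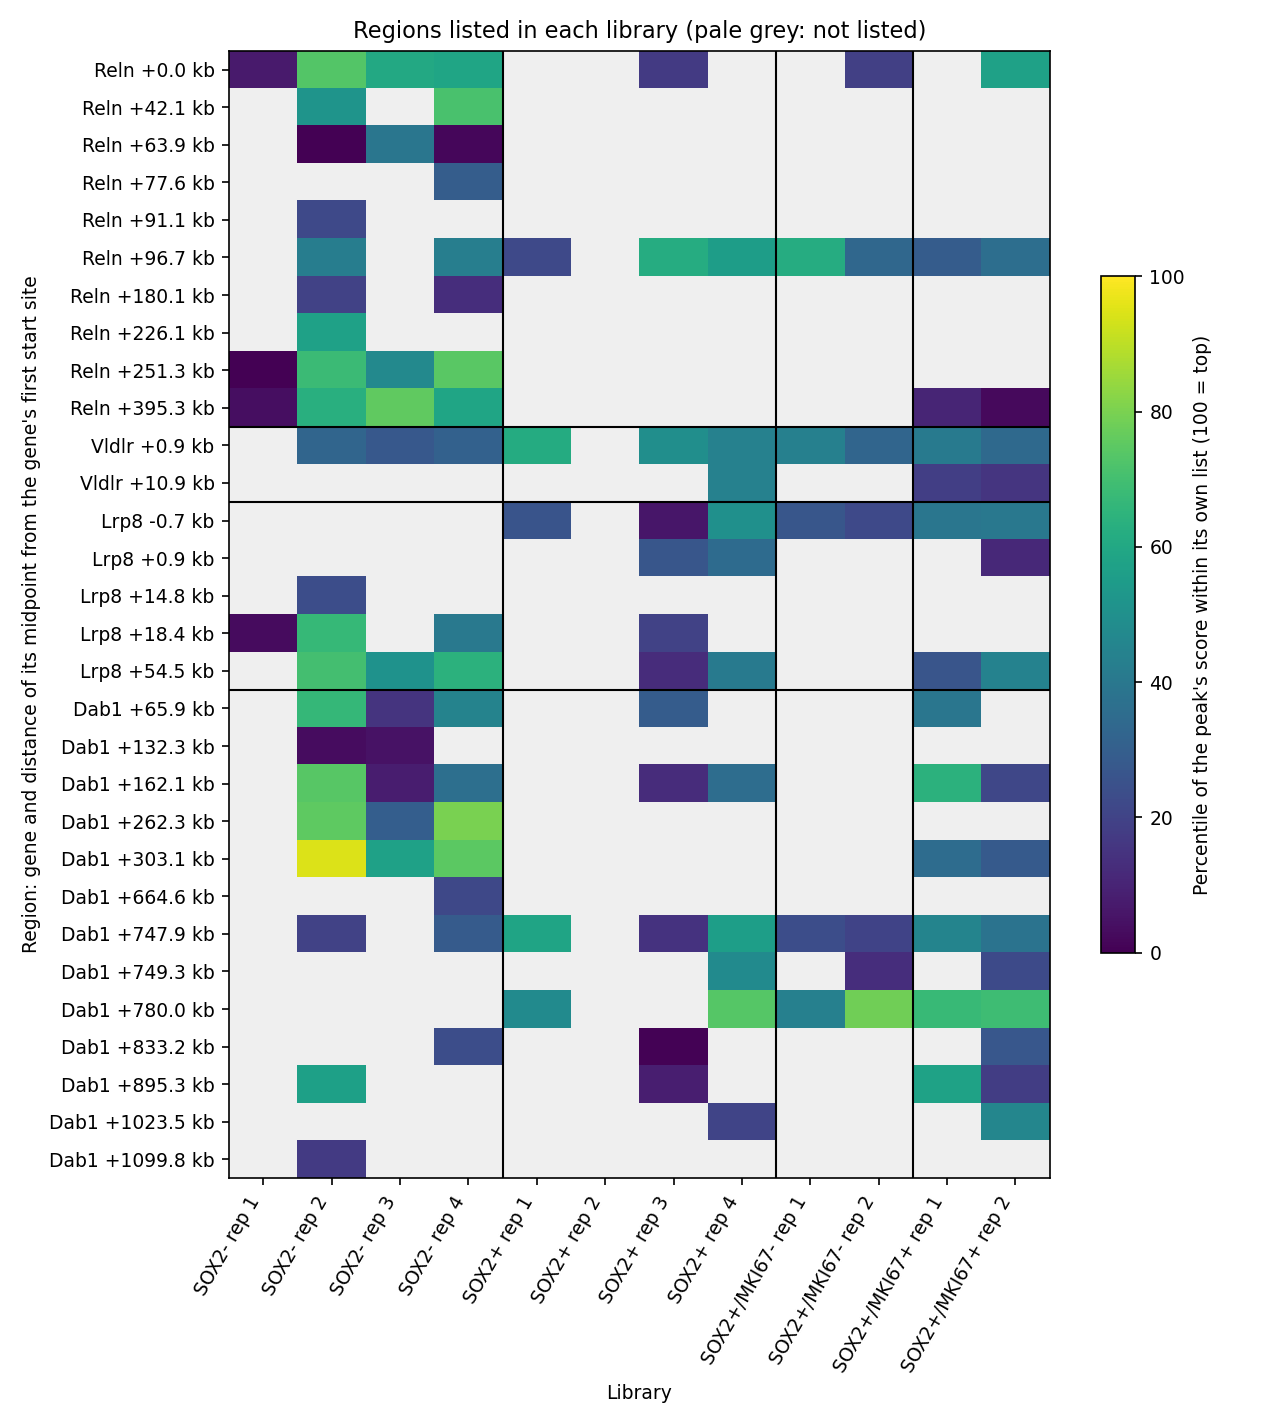
The 30 regions of the 4 genes (rows, with the distance in kb of their midpoint from the first start site) in the 12 libraries (columns). Colour is the percentile of the peak's score within its own list, and pale grey means that the region was not listed. SOX2+ replicate 2 listed none of the regions, and Reln rows are filled mainly in the SOX2- columns.

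Counted by group, 5 of the 30 regions were in at least 3 of 4 SOX2- libraries and in no SOX2+ library, 3 of them at Reln and 2 at Dab1, beside 1.54% of all 44242 regions. The opposite pattern was shown by 1 of 30, the region across the start of the Lrp8 span, beside 4.1% of all regions. In the MKI67 sort 6 of 30 were in both SOX2+/MKI67+ libraries and in neither SOX2+/MKI67- library, 3 at Dab1 and 1 at each of the other genes, beside 4.03%. None of the 30 had the reverse pattern, shown by 0.972% of all regions. Regions listed in SOX2- libraries and in none of the other 3 groups numbered 12 of 30 (7 at Reln, 4 at Dab1, 1 at Lrp8), beside 21.9% of all regions, and 6 of 30 were in no SOX2- library, beside 31.4%.

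These counts rest on few libraries. With a library left out, 1 missing peak was still allowed in a SOX2 group, so the shares over all regions moved as well. The first count was 8 of 30 without SOX2- replicate 1, beside 8.41% of all regions, and 8 of 30 without SOX2+ replicate 3, beside 2.62%. The SOX2+ count was 3 without SOX2+ replicate 2, beside 8.83%, and 2 without SOX2+ replicate 1 or replicate 3, beside 6.36% and 6.64%. The SOX2+/MKI67+ count was 9 without SOX2+/MKI67+ replicate 1, beside 14.0%, 7 without replicate 2 of that group, beside 7.88%, and 6 with each of the other 10 libraries left out in turn. The 30 regions were 200 to 1258 bp wide, and none was in all 12 libraries. By midpoint 28 lay inside a gene span, where 64.6% of all regions given to a gene lay. The other 2 were those at the Reln start and across the start of the Lrp8 span. The share inside depends on gene length, and 10 regions were at Reln and 13 at Dab1, with spans of 460.3 and 1125.3 kb.

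**Figure D4:**
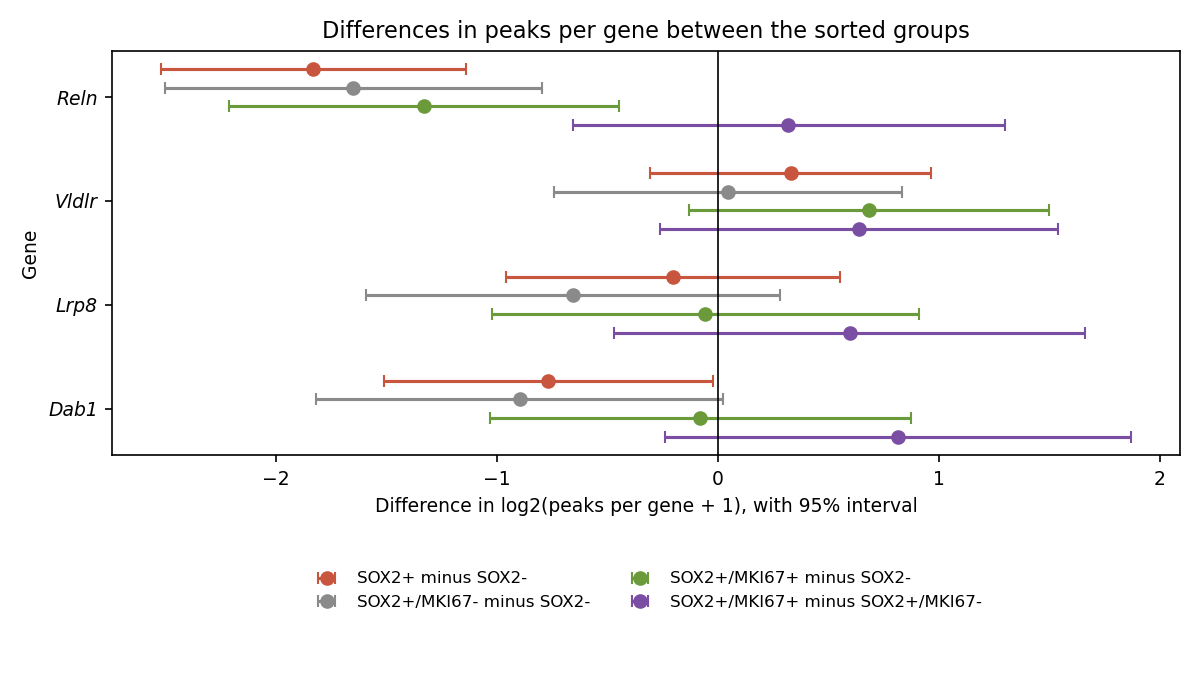
Differences between sorted groups in log2(peaks per gene + 1) for the 4 genes, from the limma fit over 14246 genes. Points are estimates and bars are 95% intervals before any adjustment. For SOX2+ minus SOX2- the Reln interval runs from -2.52 to -1.14, and the intervals of all 4 genes for SOX2+/MKI67+ minus SOX2+/MKI67- include 0.

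In the MKI67 sort, which asks whether cycling and non-cycling SOX2+ cells differ, Reln had a limma log2 difference of 0.32 ± 0.419 (SE; 95% interval -0.66 to 1.30; adjusted p = 1). The estimates of all 4 genes were above 0, where 5125 of all 14246 genes were above 0 and 7374 below. None of the 4 passed the threshold or an unadjusted p under 0.05 with limma, beside 0.225% and 4.65% of all genes. SOX2+/MKI67+ lists were 18738 and 24694 peaks long and SOX2+/MKI67- lists 19229 and 17615, so the longest of the 4 was a SOX2+/MKI67+ list.

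Other genes of the pathway were taken from a list of 63, of which 62 could be tested and Efnb3 could not. None passed the threshold for SOX2+ minus SOX2- with limma, and 10 of 62 (16.1%) had an unadjusted p under 0.05, beside 13.3% of all genes tested. Estimates were above 0 for 31 and below 0 for 25, with a median of 0.00, the same as over all genes. Within the MKI67 sort none passed and 1 of 62 had an unadjusted p under 0.05, beside 4.65% of all genes. By role, the estimates were positive for 7 and negative for 2 of 9 genes of ligands and ligand processing. The same numbers were 5 and 3 of 9 receptor partners, 2 and 1 of 3 kinases, and 10 and 12 of 25 effectors. For Dab1 turnover and splicing they were 2 and 3 of 6 genes. They were 1 and 2 of 4 regulators of Reln, and 4 and 2 of 6 other family members. The rest had the same count in every library and an estimate of 0.

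The pathway genes with the largest differences all missed the threshold, and 4 of them are described here. Src, a kinase that phosphorylates DAB1, had 0, 1, 1 and 1 peaks in SOX2- and 3, 2, 2 and 4 in SOX2+ libraries (limma log2 difference 1.04, adjusted p = 0.0624). Dab2, an adaptor of the same family as Dab1, had 0, 2, 0 and 2 against 2, 2, 3 and 3 (0.89, adjusted p = 0.216). Selenop, which encodes selenoprotein P, a ligand of ApoER2, had no peak in SOX2- libraries and 1, 0, 2 and 1 in SOX2+ libraries (0.85, adjusted p = 0.236). Tbr1, a transcription factor gene listed among the regulators of Reln, had 0, 3, 2 and 3 against 0, 0, 2 and 2 (-0.80, adjusted p = 0.606).

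Markers of cell types that the tumours could hold were counted in the same way. Over all genes tested for SOX2+ minus SOX2-, 6170 estimates were above 0 and 6344 below 0, and 0.891% passed the threshold. Of 15 granule neuron progenitor genes 12 had estimates below 0 for SOX2+ minus SOX2- (median -0.60), and only Nhlh1, a bHLH factor gene of that lineage, fell (limma log2 difference -1.46, adjusted p = 0.0275). Of the 15, 7 (46.7%) had an unadjusted p under 0.05 with limma, beside 13.3% of all genes tested. The list took 15.8 to 28.2 of every 10000 peaks in SOX2-, 9.60 to 17.3 in SOX2+, 10.9 to 14.2 in SOX2+/MKI67- and 16.5 to 18.2 in SOX2+/MKI67+ libraries, and no gene of it was at 0 in every library. Within SOX2+ the highest value, 17.3, was that of replicate 3, which also had the most Reln peaks of the group. Replicate 4 was close to it at 16.2 but had 1 Reln peak, as did replicate 1 at 10.1. Granule neuron markers without Reln took 4.28 to 11.8 in SOX2- and 4.17 to 8.31 in SOX2+ libraries, with Gabra6 and Grin2c, genes of mature granule cells, at 0 throughout. Of the 7 tested with limma, 5 were below 0, 2 (28.6%) had an unadjusted p under 0.05, and Map2 fell (-0.63, adjusted p = 0.00690). Their part in the Reln result was not tested.

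Cajal-Retzius and Purkinje cells are known for reelin signalling. Of the markers of Cajal-Retzius cells, which secrete reelin in the forebrain, 1 of 4 tested fell, namely Lhx1, and Lhx5 was at 0. The list took 2.85 to 5.07 of every 10000 peaks in SOX2- and 1.07 to 3.06 in SOX2+ libraries. Lhx1 had 1, 6, 3 and 6 peaks in SOX2- and 0, 0, 1 and 0 in SOX2+ libraries (limma log2 difference -2.02, adjusted p = 0.0230). It is also a marker of Purkinje cells, the cells that receive reelin, whose list had no other call in 8 tested, took 2.85 to 12.5 in SOX2- and 5.33 to 12.2 in SOX2+ libraries, and had Pcp2 and Lhx5 at 0. Stem and progenitor markers were above 0 for 7 of 9 (median 0.74, with Fabp7 and Sox21 called higher), and oligodendrocyte lineage markers for 7 of 8 (median 0.87, with Olig2 and Nkx2-2 called higher). With limma an unadjusted p under 0.05 was found for 1 of 4 Cajal-Retzius and 2 of 8 Purkinje markers. It was found for 5 of 9 stem and progenitor and 4 of 8 oligodendrocyte lineage markers, beside 13.3% of all genes tested. No marker of astrocytes and Bergmann glia (8 tested), GABAergic interneurons (5), unipolar brush cells (4), microglia (3), endothelial and mural cells (4) or fibroblasts and meninges (3) passed with limma, and at an unadjusted p under 0.05 there were 3, 1, 1, 1, 0 and 1, beside 13.3% of all genes tested. Astrocyte and Bergmann glia markers were above 0 for 7 of 8 and below 0 for 1 (median 0.44). They took 1.43 to 5.53 of every 10000 peaks in SOX2- and 4.27 to 9.17 in SOX2+ libraries. The part of these lists in the results at the 4 genes was not tested.

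Genes whose peak numbers were distributed like those of Reln over the 12 libraries were sought among 1946 genes with a mean of at least 2 peaks, after removing the dependence on list length. The 5 most alike, by Pearson's r of log2(peaks + 1), were Clstn2 (r = 0.941), Btbd11 (0.919), Dpf3 (0.886), Cacna2d1 (0.875) and Cdk14 (0.873). Clstn2, a cadherin-family gene of neurons, had mean counts of 5 in SOX2-, 1.25 in SOX2+, 1.5 in SOX2+/MKI67- and 2.5 in SOX2+/MKI67+ libraries, where Reln had 6.0, 1.25, 1.5 and 2.5. Dab1 was most like Slc14a2 (r = 0.945), Meis1 (0.896) and Ppfia2 (0.894). Slc14a2 had means of 3.25, 2, 1.5 and 4 in the same order, where Dab1 had 5.0, 3.0, 2.5 and 7.0. Reln and Dab1 themselves had r = 0.689. These values describe 12 libraries that share their sorts and list lengths, and Vldlr and Lrp8 had too few peaks for the comparison.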

How the data were processed

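ATAC-seq libraries of mouse tumour cells were read from a single end for 50 bases, per the labels' protocols. Per the submitters' processing notes, the authors used Bowtie2, MACS2 and mm10. Versions, settings and any shift for the transposase are not given in the sources used here. All deposited lists, 1 per library, give for each peak a score, a fold ratio, a −log10 p-value and a −log10 q-value, made by the authors. Score was used only to rank peaks within a list.

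Peaks were given to the nearest of 21631 protein-coding RefSeq genes (GRCm38.p6), and peaks overlapping by at least 1 bp formed a region. Peaks per gene were fitted with limma 3.58.1 in R 4.3.3 (lmFit, eBayes with trend) on log2(count + 1), with 4 groups and log10 of list length, for genes that 2 or more libraries list. This scale understates the change of genes with few peaks. Adjusted p-values are those of Benjamini and Hochberg across every gene in the fit. Regions were described, not tested, since 4 libraries against 4 allow no exact permutation p below 0.0286.

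The 4 genes and all lists were chosen with earlier results of these data known. Regions were named when in at least 3 of 4 libraries of one SOX2 group and none of the other, in both of one MKI67 group and none of the other, in all 12 libraries, or within 1 kb of a gene end. Pathway genes were named when past the threshold, and otherwise the 6 largest differences, of which 2 are not reported here. Alternatives covered the pseudocount, filters, window, list length, −log10 q, covariate, replicate block and each library left out.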

Additional observations from a re-analysis of the deposited data

Results flagged for a closer look

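The Vldlr count of SOX2- replicate 1 was 0 where the other 3 SOX2- libraries each listed 1 peak. The Vldlr count of SOX2+ replicate 2 was likewise 0 where the other 3 SOX2+ libraries each listed 2 peaks. Each met Dixon's criterion for 4 values, as did no other of the 8 sets of 4 libraries, each examined as a count and per 10000 peaks. Chance meets the criterion in about 1 in 20 groups of continuous values, but with 3 equal counts any different count meets it, so these results say no more than that. Their lists, of 7009 and 9377 peaks, were the shortest of the 12.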

How the results depend on the processing

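Read depth was not available from peak lists, so list length limits what a missing peak can show. For Reln in SOX2+ minus SOX2- every alternative kept the direction. The adjusted p missed the threshold with a pseudocount of 0.5 (-2.24), a −log10 q of at least 5 (-1.78), every gene within 100 kb counted (-1.59), no covariate for list length (-1.70), the libraries of its own sort only (-1.83) and, added after seeing the data, the shortest list of each SOX2 group left out (-1.65). With the replicate block it was -1.85 (adjusted p = 0.236), and the block changed no other call at the 4 genes. Same-numbered SOX2- and SOX2+ libraries correlated by -0.182 to 0.406, with 1 of 4 pairs over 0.1 and 2 of 4 best with their own number, so the numbers were not taken as pairs. With single libraries left out the Reln difference was -2.10 to -1.66. Reln in SOX2+/MKI67- minus SOX2- passed the threshold at equal peak numbers (-1.65) and ranged from -2.0 to -1.31 with single libraries left out, passing without SOX2+ replicate 3 and, with constant genes dropped, without SOX2+ replicate 4. In SOX2+/MKI67+ minus SOX2- it also passed at equal peak numbers (-1.65). Reln within the MKI67 sort ranged from -0.0279 to 0.660 with single libraries left out.

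Other values reversed or passed the threshold. Dab1 in SOX2+/MKI67+ minus SOX2- was 0.338 at a −log10 q of at least 5, 0.80 without the covariate, and -0.337 to 0.153 with single libraries left out. Lrp8 in SOX2+ minus SOX2- was 0.173 without the shortest lists and -0.46 to 0.119 with single libraries left out, and in SOX2+/MKI67+ minus SOX2- it was 0.396 without the covariate, 0.104 without the shortest lists and -0.193 to 0.0871 with single libraries left out. Vldlr was -0.149 within the MKI67 sort at a −log10 q of at least 5, 0.807 (past the threshold) in SOX2+/MKI67+ minus SOX2- without the shortest lists, and in SOX2+/MKI67- minus SOX2- -0.00663 without them and -0.13 to 0.176 with single libraries left out. Vldlr had too few peaks to be tested in every comparison at equal peak numbers. The cause of these changes was not tested.

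The 4 genes had 30 regions, but 12 at equal peak numbers and 25 at a −log10 q of at least 5. Regions of SOX2- but not SOX2+ libraries numbered 2 of 30 when all 4 libraries were required (0.158% of all regions), 3 of 12 at equal peak numbers (2.84%), 8 of 30 without the shortest lists (8.43%) and 5 to 8 with single libraries left out. Those of SOX2+ but not SOX2- numbered 0 of 30 (1.61%), 0 of 12 (4.77%), 3 of 30 (8.85%) and 1 to 3 in the same order, and 0 of 25 at a −log10 q of at least 5 (4.15%). Those of SOX2+/MKI67+ but not SOX2+/MKI67- numbered 0 of 12 at equal peak numbers (2.14%) and 2 of 25 at a −log10 q of at least 5 (3.63%). Over all genes, 127 passed for SOX2+ minus SOX2-, against 60 with the replicate block, 196 with every gene counted, 231 at equal peak numbers, 233 with constant genes dropped, 251 without the shortest lists, 199 without SOX2+ replicate 2 and 85 without SOX2+ replicate 1. In SOX2+/MKI67+ minus SOX2+/MKI67- 32 passed, against 0 to 314 over the alternatives, the latter in a fit of that sort only.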
